A study of Arabidopsis thaliana with 6 samples.

Results

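The core cell cycle machinery of *Arabidopsis thaliana* was followed through vernalization as a list of 48 genes, made up of the A-, B- and D-type cyclins, the CDKA and CDKB kinases, the KRP and SIM/SMR inhibitors, the replication genes *MCM2* to *MCM7*, *PCNA1* and *PCNA2*, and the mitotic genes *KNOLLE*, *CDC20.1*, *AUR1* and *AUR2*. The genes were chosen by their function, with earlier results of these data known, and taken from the table by locus identifier. Of the 48, 47 have a row in the table of 18368 genes used, and *CYCA2;1* (AT5G25380) was not analysed here. The filter on low values (a mean of at least 10 normalized counts) left 45 members among the 16771 genes tested. *CYCA3;1* and *KRP7* fell under it.

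Wild-type Col-0 seedlings without vernalization (0v) were compared with vernalized ones (4v), with 3 libraries of each. The 0v seedlings had spent 11 days at 22 °C, and the 4v seedlings 7 days at 22 °C followed by 28 days at 5 °C, on vertical MS plates in days of 16 h light. A 0v plant was therefore 11 days old and a 4v plant 35 days old, so that cold and age cannot be told apart. Replicates came from separate plates. RNA of whole seedlings was sequenced in bulk after polyA selection, and every value mixes dividing, endoreduplicating and non-dividing tissues. No mutant or transgene was carried by either group.

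In plants, D-type cyclins bind CDKA;1 and drive the step from G1 into S phase by phosphorylating the retinoblastoma protein RBR1, which frees E2F transcription factors to switch on replication genes. The MCM proteins form the ring-shaped helicase that is loaded on origins, and PCNA is the clamp that holds the polymerase on DNA. B-type cyclins and the plant-specific CDKB kinases act at G2 and mitosis under MYB3R factors that bind the mitosis-specific activator (MSA) element, while KRP and SIM/SMR proteins bind and inhibit CDK complexes.

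Depth set the precision. The reads recovered from the normalized values came to 20005225 and 23141488 in 0v replicate 3 and 4v replicate 2, the deep libraries, and to between 1636687 and 1836717 in the 4 shallow ones. The median tested member had 18 reads in a shallow library and 221 in a deep one. Values below are normalized counts, that is reads divided by 1 size factor per library. Log2 fold changes are 4v over 0v on the scale log2(normalized count + 4), which understates the change of low genes, and a gene is called where limma gave an adjusted p (Benjamini-Hochberg over all genes tested) under 0.05. Because whole seedlings were sampled, fewer cells of a type and less RNA per cell cannot be told apart in any of these values.

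Across the 45 tested members, 1 was called higher in 4v (*MCM5*) and 2 lower (*KRP4* and *PCNA2*), while 6.46% of all genes tested were called higher and 6.99% lower. A further 7 members had a limma adjusted p between 0.05 and 0.1, of which 6 had higher means in 4v (*MCM2*, *MCM7*, *SMR1*, *PCNA1*, *CYCD4;1* and *CDKB1;1*) and 1 a lower mean (*CYCD3;2*). The 3 libraries of 4v all lay above the 3 of 0v for 11 members (24.4% of the tested members, against 20.5% of all genes) and all below for 3 (6.67%, against 18.7%). As a whole the list was thus called and separated at shares near or under those of the transcriptome, and an unadjusted p under 0.05 was found for 26.7% of its members and 32.0% of all genes. The median log2 fold change was 0.26 over the members and 0.05 over all genes.

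The number of calls depended on the tool and on the values listed at 0. On recovered reads, limma-voom called 12 members higher and 3 lower (14.9% and 13.8% of all genes), edgeR 1 and 2 (5.64% and 7.17%) and DESeq2 2 and 2 (6.62% and 8.35% of the genes with an adjusted p). With values of 0 treated as missing where the deep library of the group implied at least 5 reads, limma called 7 members higher and 3 lower (7.81% and 8.14% of all genes). Under limma-voom 5 of the 12 higher members were replication genes. In the 4 shallow libraries alone, 0 members were called in either direction.

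The classes differed in their medians. By class, the median log2 fold change was 0.92 for the 8 replication genes, 0.47 for the 5 kinases, 0.35 for the 8 B-type cyclins, 0.23 for the 8 inhibitors tested, -0.10 for the 5 A-type cyclins tested, -0.16 for the 4 mitotic genes and -0.37 for the 7 D-type cyclins. In the same order, the medians between the deep libraries alone were 1.38, 0.07, 0.47, 0.55, -0.17, 0.23 and 0.07. Those of the mitotic genes and D-type cyclins thus turned sign. Under quantile normalization the medians, again in this order, were 0.82, 0.29, 0.13, 0.03, -0.20, -0.25 and -0.45. Ordered by phase, the genes of G1/S and S had a median of 0.89 (9 genes), those of G2 and M 0.26 (17 genes), and those of G1 and G1/S -0.37 (7 genes).

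**Figure D1:**
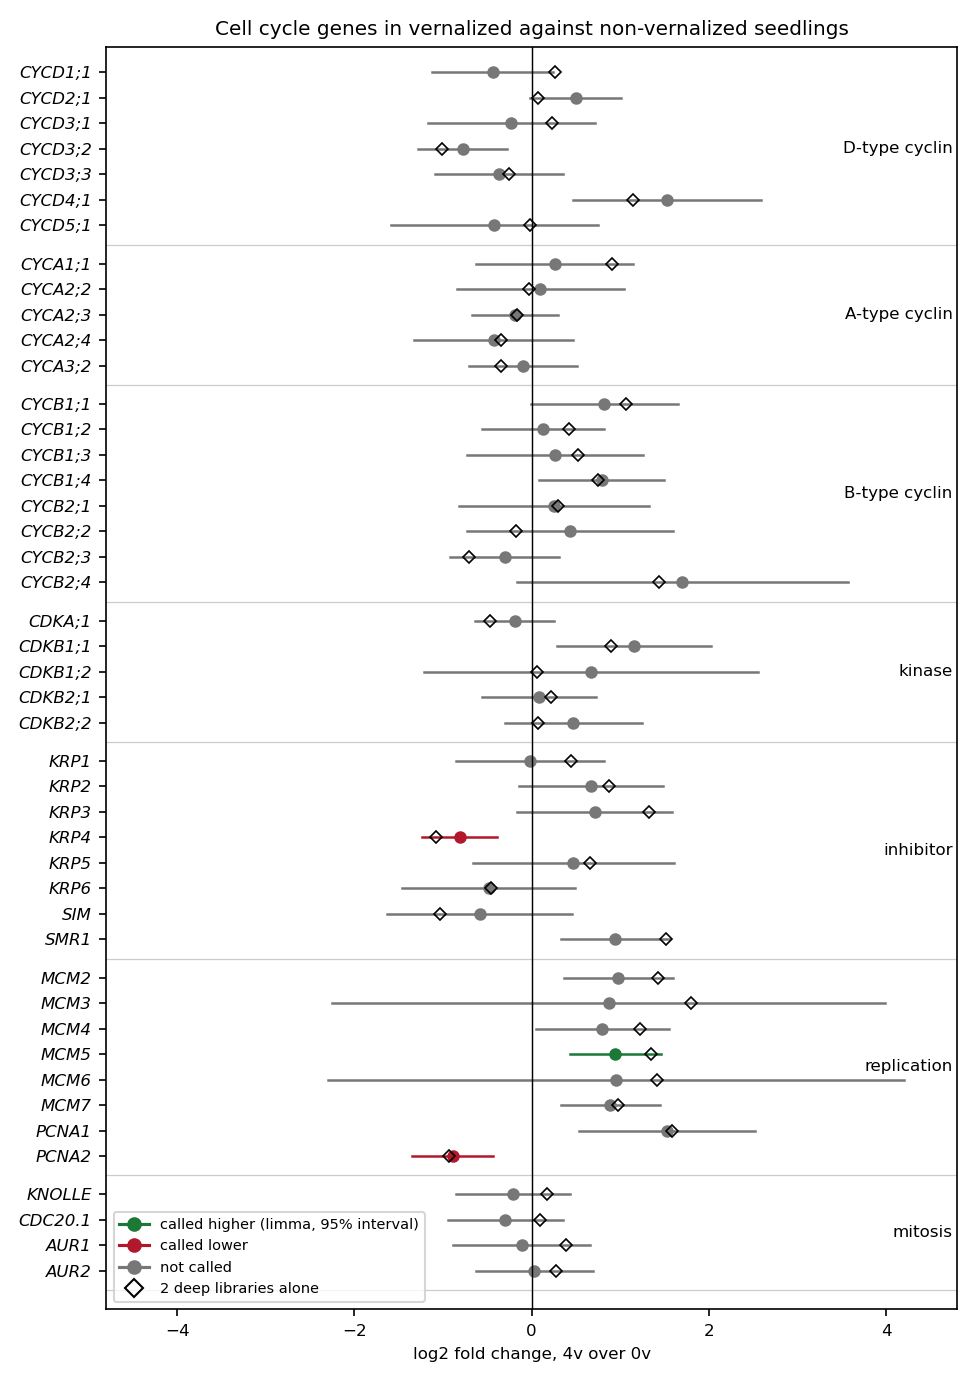
Log2 fold change (4v over 0v, x axis, on the log2(normalized count + 4) scale) of the 45 tested members, grouped by class. Points and bars are limma estimates with 95% intervals, colour marks the call, and open diamonds give the ratio of the 2 deep libraries alone, which has no replicate. *MCM5* is the member called higher and *KRP4* and *PCNA2* are those called lower. The widest intervals, of *MCM3* and *MCM6*, belong to genes listed at 0 in 1 library of each group.

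The upstream sequences of the replication genes and of the mitotic cyclins carried different motifs. Windows from 250 bases before to 50 after the annotated gene start (TAIR10.1, whose coordinates equal those of the table for all 47 members with a row) were searched on both strands for 4 versions of the E2F site, TTTCCCGC, TTTGGCGC, TTTCCCGG and one with the letters TTTGCCGC, and for the MSA core AACGG. No E2F match overlapped an MSA match in a member. An E2F match was present in 5 of the 6 *MCM* genes (83.3%), in 0 of the 17 genes of G2 and M, and in 2.21% of the windows of all 18307 genes located. The MSA core was present in 12 of the 17 genes of G2 and M (70.6%) and in 7 of the 8 B-type cyclins (87.5%). It was also present in 5 of the 9 inhibitors (55.6%), in 2 of the 6 *MCM* genes (33.3%) and in 26.2% of all windows. A match describes the letters only.

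The *MCM* windows that hold an E2F match are shown because *MCM5* was called higher and *MCM2* and *MCM7* came close to the threshold. Each line gives 60 bases on the coding strand, 5′ to 3′, with the match in capitals (read on the opposite strand for *MCM3*, *MCM4* and *MCM6*). They lie at chr1:16970154-16970213 (plus strand) for *MCM2*, chr5:18773837-18773896 (minus) for *MCM3*, chr2:7130730-7130789 (minus) for *MCM4*, chr2:3527501-3527560 (minus) for *MCM5* and chr5:18010674-18010733 (minus) for *MCM6*.
MCM2: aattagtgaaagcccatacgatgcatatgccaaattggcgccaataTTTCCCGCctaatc
MCM3: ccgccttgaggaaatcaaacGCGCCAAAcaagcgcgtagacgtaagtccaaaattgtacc
MCM4: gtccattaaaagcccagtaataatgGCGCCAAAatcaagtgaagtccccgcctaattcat
MCM5: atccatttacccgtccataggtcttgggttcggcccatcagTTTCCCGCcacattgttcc
MCM6: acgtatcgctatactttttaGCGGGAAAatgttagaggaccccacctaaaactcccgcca

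The 6 B-type cyclins with an MSA core before the gene start are shown because this class held the core most often. The core is in capitals, as AACGG or, on the opposite strand, as its complement CCGTT. Further cores of a gene can lie outside the stretch. In the order of the lines they lie at chr4:17624437-17624496 (minus strand), chr5:1861807-1861866 (minus), chr3:3627298-3627357 (minus), chr2:7663898-7663957 (plus), chr4:16901404-16901463 (plus) and chr1:7137903-7137962 (minus).
CYCB1;1: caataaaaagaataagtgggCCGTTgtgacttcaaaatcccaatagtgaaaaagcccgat
CYCB1;2: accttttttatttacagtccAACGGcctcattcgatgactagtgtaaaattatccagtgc
CYCB1;3: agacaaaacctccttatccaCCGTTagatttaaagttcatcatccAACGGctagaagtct
CYCB2;1: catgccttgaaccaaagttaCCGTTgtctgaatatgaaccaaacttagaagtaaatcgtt
CYCB2;2: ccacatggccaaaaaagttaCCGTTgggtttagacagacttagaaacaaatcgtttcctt
CYCB2;3: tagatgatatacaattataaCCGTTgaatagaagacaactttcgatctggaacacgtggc

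*MCM7*, *PCNA1*, *PCNA2* and *KRP4* had no E2F match in the window. *MCM7* held 1 MSA core, and *PCNA1*, *PCNA2* and *KRP4* held neither motif.

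The minichromosome maintenance (*MCM*) genes had higher fitted levels in 4v as a group, with 1 of 6 called higher (6.46% of all genes). All 6 had a positive log2 fold change, against a median of 0.05 over all genes, although those of *MCM3* and *MCM6* turned negative when 0v replicate 2 was left out. *MCM5* (AT2G07690, chr2:3522984-3527500), which encodes 1 subunit of the helicase, had 64.9, 80.7 and 52.4 normalized counts in 0v replicates 1, 2 and 3 and 116, 133 and 139 in 4v replicates 1, 2 and 3. The groups did not overlap, and the mean rose from 66.0 ± 14.2 to 129 ± 12.2 (SD, n = 3 each). The log2 fold change was 0.95 (SE 0.22, limma adjusted p = 0.0321). The call was lost when 0v replicate 1 (adjusted p = 0.0796), 4v replicate 1 (0.0810), 4v replicate 2 (0.111) or 4v replicate 3 (0.110) was left out, with log2 fold changes of 0.89 to 1.02 in those limma fits.

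*MCM2*, *MCM4* and *MCM7*, which encode other subunits of the ring, fell outside the threshold, and their values in each library are given although the rule for named genes did not ask for them. *MCM2* had 68.3, 71.0 and 42.9 normalized counts in 0v and 104, 115 and 148 in 4v, with a log2 fold change of 0.98 (SE 0.26, limma adjusted p = 0.0502). *MCM7* had 47.8, 83.9 and 62.9 in 0v and 116, 123 and 122 in 4v (0.89, SE 0.24, limma adjusted p = 0.0507). In both genes the lowest 4v library was above the highest 0v library.

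*MCM4* had 47.8, 93.6 and 40.3 normalized counts in 0v and 100.5, 93.8 and 111 in 4v, a log2 fold change of 0.80 (SE 0.32, limma adjusted p = 0.138). Its groups did not overlap only by the smallest margin, since 0v replicate 2 lay just under 4v replicate 2. Summed over *MCM2*, *MCM4*, *MCM5* and *MCM7*, the libraries held 229, 329 and 198 normalized counts in 0v and 435, 465 and 520 in 4v. That is 252 ± 68.4 against 473 ± 42.7 (SD, n = 3 each), a ratio of means of 1.88.

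*MCM3* and *MCM6* were each listed at 0 in 0v replicate 2 and in 4v replicate 1. *MCM3* had 27.3, 0 and 24.7 normalized counts in 0v and 0, 86.3 and 56.8 in 4v, and *MCM6* had 30.7, 0 and 25.8 in 0v and 0, 68.9 and 99.4 in 4v. At the level of the deep library of the same group, 7.67 and 7.99 reads would have been found in 0v replicate 2 and 28.4 and 22.6 reads in 4v replicate 1, for *MCM3* and *MCM6* respectively. Reads of the other 4 *MCM* genes were found in both of these libraries, and whether a failed estimate set these values to 0 was not tested. The log2 fold changes were 0.87 (SE 1.33, limma adjusted p = 0.688) and 0.96 (SE 1.38, adjusted p = 0.671). Without 0v replicate 2 they turned to -0.10 and -0.05. With such values of 0 treated as missing, an alternative chosen after seeing the data, they were 1.3 (limma adjusted p = 0.0645) and 1.43 (adjusted p = 0.0454).

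In the deep libraries alone, where the *MCM* genes had 94 to 239 reads in 0v replicate 3 and 340 to 657 in 4v replicate 2, the log2 ratios were 1.42 for *MCM2*, 1.80 for *MCM3*, 1.22 for *MCM4*, 1.35 for *MCM5*, 1.42 for *MCM6* and 0.97 for *MCM7*. The 95% exact binomial intervals, which cover counting error only, lay above 0 for each of the 6, the lowest reaching down to 0.75 for *MCM7*. This compares 2 libraries and not the conditions, and the share of all genes with such an interval was not computed.

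**Figure D2:**
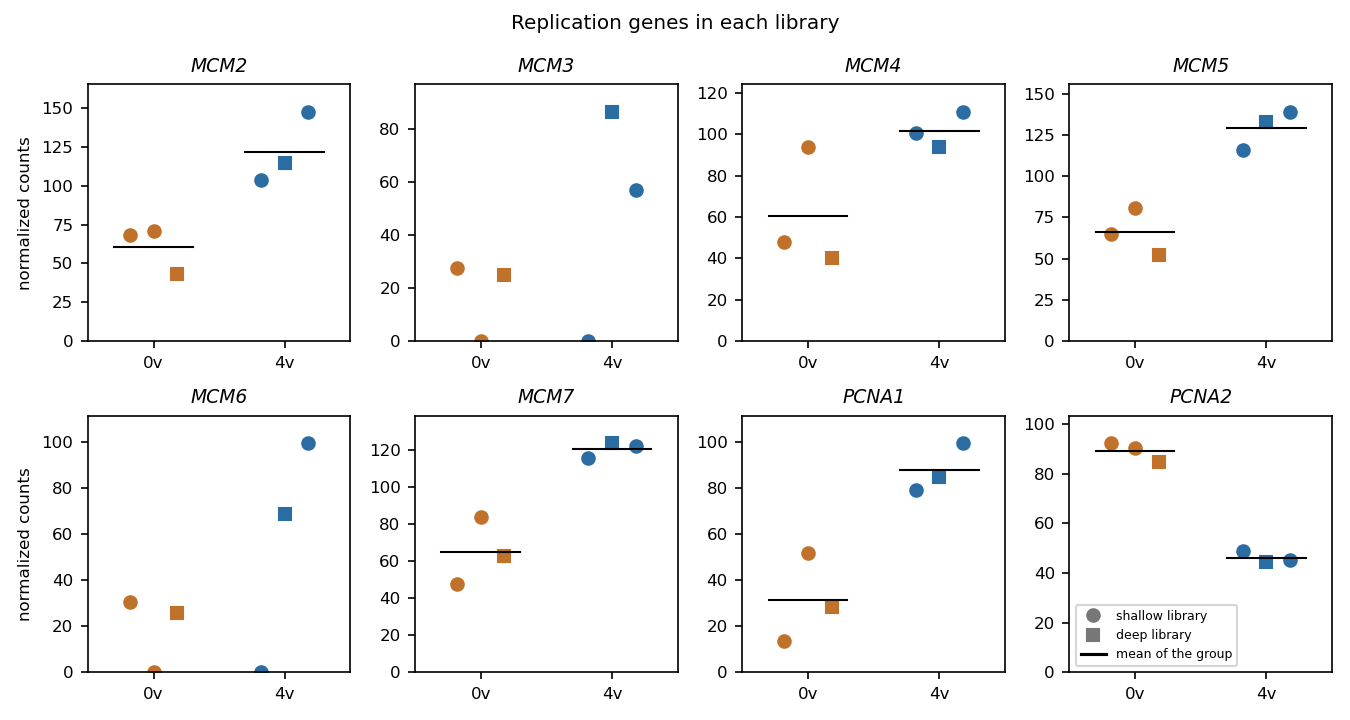
Normalized counts (y axis, from 0) of the 8 replication genes in each library of 0v and 4v, with the shallow libraries as circles, the deep ones as squares and the group mean as a line, left out where a library is listed at 0. *MCM2*, *MCM4*, *MCM5*, *MCM7* and *PCNA1* have all 4v libraries above all 0v libraries, and *PCNA2* has them below.

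The pair of clamp genes differed in opposite directions, and the fall of *PCNA2* passed the test. *PCNA2* (AT2G29570, chr2:12649906-12651753) had 92.2, 90.3 and 84.7 normalized counts in 0v and 48.7, 44.4 and 45.4 in 4v. The groups were tight and did not overlap, and the mean fell from 89.1 ± 3.87 to 46.2 ± 2.27 (SD, n = 3 each), a log2 fold change of -0.89 (SE 0.20, limma adjusted p = 0.0283). *PCNA1* (AT1G07370, chr1:2263037-2264553) had 13.7, 51.6 and 28.4 in 0v and 79.2, 84.9 and 99.4 in 4v, without overlap, a log2 fold change of 1.53 (SE 0.42, limma adjusted p = 0.0553).

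Each of the genes encodes a PCNA sliding clamp, and their proteins were not compared here. Within each library the ratio of *PCNA1* to *PCNA2* per transcript length was 0.155, 0.598 and 0.351 in 0v and 1.70, 2.00 and 2.29 in 4v. This ratio was chosen after the values were seen and is given as a description. *PCNA2* was the higher of the pair in each 0v library and *PCNA1* in each 4v library. Their summed normalized counts, 106, 142 and 113 in 0v and 128, 129 and 145 in 4v, overlapped. The transcripts can be told apart by reads, since *PCNA1* shares 1.0% of its stretches of 31 bases with *PCNA2*.

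The fall of *PCNA2* was called by limma, limma-voom and edgeR (adjusted p = 0.0317 in edgeR) but not by DESeq2 (adjusted p = 0.0659). In limma it was lost without 0v replicate 1 (adjusted p = 0.0783), 0v replicate 2 (0.0686), 4v replicate 1 (0.0768), 4v replicate 2 (0.0981) or 4v replicate 3 (0.0861), with log2 fold changes of -0.93 to -0.87. *PCNA2* overlaps *ENO3* (AT2G29560), an enolase gene, and shares 249 of its 1153 stretches of 31 bases with it. No source used here says whether reads were assigned by strand. *ENO3* itself had a log2 fold change of -0.10 (limma adjusted p = 0.802).

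Genes that act beside the *MCM* and *PCNA* proteins were read from a list of 19 origin and replication fork genes, of which 17 were tested. Of these, 3 were called higher by limma and 0 lower (6.46% and 6.99% of all genes), and limma-voom called 10 higher and 1 lower (14.9% and 13.8%). In limma 16 had a positive log2 fold change, and the median was 0.73, against 0.05 over all genes. The 4v libraries all lay above the 0v libraries for 10 of the 17 (20.5% of all genes). With unadjusted p under 0.05, 7 were higher and 0 lower, where 32.0% of all genes passed in either direction. *CDT1A*, which loads the MCM ring on origins, had 20.5, 29.0 and 32.4 normalized counts in 0v and 76.1, 76.4 and 99.4 in 4v (log2 fold change 1.5, limma adjusted p = 0.0158). *ICU2*, the catalytic subunit of DNA polymerase alpha, had 27.3, 16.1 and 18.2 in 0v and 88.3, 46.2 and 76.7 in 4v (1.58, limma adjusted p = 0.0278). Each of these genes rose without overlap between the groups.

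*RNR1*, the large subunit of ribonucleotide reductase, which makes deoxyribonucleotides, had 164, 168 and 117 normalized counts in 0v and 286, 278 and 412 in 4v (1.10, limma adjusted p = 0.0224). edgeR and DESeq2 called these 3 genes too. In limma, the calls of *CDT1A* and *RNR1* were lost without any 1 of the 3 libraries of 4v, that of *RNR1* also without 0v replicate 1, and that of *ICU2* without 0v replicate 2 or the 4v libraries numbered 1 and 3, each left out alone, with adjusted p up to 0.0669, 0.0721 and 0.106. Of the origin recognition genes, *ORC4* had a log2 fold change of 0.99 (limma adjusted p = 0.0659), *ORC2* 1.26 (0.119) and *ORC3* 0.84 (0.129). The gene with a negative value was *CDC6A* (-0.13, limma adjusted p = 0.904), at -1.29 between the deep libraries alone.

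Upstream of replication, the list of 9 genes of G1/S transcription control held 1 gene called higher by limma and 0 lower (6.46% and 6.99% of all genes). The median log2 fold change was 0.43. *E2FA*, an activator of S phase genes, had 13.7, 16.1 and 21.1 normalized counts in 0v and 42.6, 60.8 and 65.3 in 4v. It rose by 1.52 on the log2 scale (SE 0.32, limma adjusted p = 0.0241), without overlap, and edgeR and DESeq2 called it as well. The limma call stood without 0v replicate 3 and was lost without each of the other libraries, with an adjusted p up to 0.0992. *RBR1* had a log2 fold change of 0.56 and *DEL1*, an atypical E2F, one of 1.44 (limma adjusted p = 0.0558 and 0.0966), both without overlap. The 5 genes of histone H3.1, the replication-dependent form of the histone, had a median of 0.18 and overlapping groups. Of these, 0 were called by limma (6.46% of all genes higher and 6.99% lower), limma-voom, edgeR or DESeq2. At an unadjusted p under 0.05 there were 0, against 32.0% of all genes. Between the deep libraries alone, *HTR1*, *HTR2*, *HTR3*, *HTR9* and *HTR13* of this list were at 0.65, 0.99, 0.67, 0.48 and 1.18.

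Some markers of dividing tissue differed between the groups alongside these genes. Of 8 markers of meristems and dividing leaf tissue, 6 had a row and were tested. In limma 3 were called higher (6.46% of all genes), namely *ANT* (1.74, adjusted p = 0.00476), *KNAT1* (1.27, adjusted p = 0.00978) and *STM* (1.0, adjusted p = 0.0197). The other tested markers, *GIF1*, *GRF1* and *GRF2*, had overlapping groups (0.18, 0.19 and 0.54, limma adjusted p = 0.705, 0.718 and 0.327). Between the deep libraries alone these 3 were at 0.53, -0.42 and -0.34. The call of *STM* was lost without any 1 of the 3 libraries of 4v (limma adjusted p up to 0.0755), and those of *ANT* and *KNAT1* stood without each library. The summed level of the 6 was 445 to 513 normalized counts in 0v and 843 to 875 in 4v, while *CLV3* and *WUS* were not analysed here. Root tip markers summed to 216 to 311 in 0v and 354 to 380 in 4v (4 of 5 with a row). Within this sum *SCR* alone held 161 to 236 in 0v and 263 to 277 in 4v (limma adjusted p = 0.161). *SHR* had overlapping groups, and *PLT1* and *WOX5* fell under the filter and were not tested. Root hair markers summed to 22.1 to 67.8 and 31 to 70.0 (3 of 3), and stomatal lineage markers to 85.3 to 129 and 39.6 to 91.4 (5 of 6). Both groups held the green leaf genes expected of seedlings at 220789 to 504028 summed normalized counts (3 of 3), although *CA1*, a carbonic anhydrase, fell by 1.96 on the log2 scale (limma adjusted p = 0.014, and 0.0528 without 4v replicate 1). The part of tissue composition in the differences of the replication genes was not tested.

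D-type cyclins, which answer to hormones and sugar at the entry into the cycle, differed among themselves in direction. Of the 7 tested, 0 were called by limma, and 2 had an unadjusted p under 0.05 (32.0% of all genes). limma-voom called 1 higher and 1 lower (14.9% and 13.8% of all genes), edgeR 0, and DESeq2 1 lower (8.35%). *CYCD4;1* (AT5G65420), a cyclin of stomatal and lateral root divisions, had 3.41, 9.68 and 9.74 normalized counts in 0v and 30.5, 21.5 and 34.1 in 4v. Its log2 fold change was 1.53 (SE 0.45, limma adjusted p = 0.0663), and the groups did not overlap, although the shallow 0v libraries held 1 and 3 reads. *CYCD3;2*, which with its paralogues holds leaf cells in the mitotic cycle, had 269.7, 381 and 296 in 0v and 177, 147 and 227 in 4v, without overlap (-0.77, SE 0.21, limma adjusted p = 0.0551).

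The other *CYCD3* genes had log2 fold changes of -0.23 for the first and -0.37 for the third of the family, with overlapping groups. The sum of the 3 *CYCD3* genes was 481, 703 and 431 normalized counts in 0v and 396, 284 and 392 in 4v. Every 4v library thus lay under every 0v library. The second of the family, which separated the groups by itself, held the largest part of this sum. Its means were 315 in 0v and 184 in 4v, where those of the sum were 539 and 357. Between the deep libraries alone the first of the family was at 0.23, opposite to its fitted direction. The second was at -1.01 and the third at -0.25. The sum is therefore no sign of a fall in each of the 3 genes. *CYCD2;1* had a log2 fold change of 0.50 without overlap (limma adjusted p = 0.167), *CYCD5;1* one of -0.42 and *CYCD1;1* one of -0.44. For the last of these the deep libraries alone gave 0.27, in the opposite direction.

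Among the 8 inhibitors tested, limma called 1, which was lower (6.99% of all genes). limma-voom called this gene lower (13.8% of all genes) and 3 others higher (14.9%), namely *KRP2*, *KRP3* and *SMR1* (limma-voom adjusted p = 0.0364, 0.0135 and 0.00943). *KRP4* (AT2G32710, chr2:13873362-13876737), of the KRP family of CDK inhibitors, had 167, 152 and 205 normalized counts in 0v and 104, 96.7 and 90.9 in 4v. The mean fell from 175 ± 27.3 to 97.0 ± 6.35 (SD, n = 3 each) without overlap, a log2 fold change of -0.81 (SE 0.18, limma adjusted p = 0.0286). limma-voom, edgeR and DESeq2 called it too. In limma the call was lost without 0v replicate 1 (adjusted p = 0.0711), 4v replicate 1 (0.0779), 4v replicate 2 (0.0936) or 4v replicate 3 (0.0943), with log2 fold changes of -0.86 to -0.77. *KRP4* overlaps *CYTB5-B* (AT2G32720), a cytochrome b5 gene, and shares 896 of its 2383 stretches of 31 bases with it. *CYTB5-B* had a log2 fold change of -0.21 (limma adjusted p = 0.762).

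*SMR1*, an inhibitor of the SIAMESE family, which restrains division and promotes endoreduplication, had 68.3, 45.2 and 46.8 normalized counts in 0v and 91.4, 134 and 93.7 in 4v, without overlap. Its log2 fold change was 0.95 (SE 0.26, limma adjusted p = 0.0544). *SIM*, the founding member, which acts in trichomes, had 78.5, 32.3 and 83.9 in 0v and 24.4, 40.9 and 56.8 in 4v, with overlap (-0.59, limma adjusted p = 0.403). Both genes share stretches of 31 bases with neighbours that are not in the table used, 34.3% for *SMR1* and 27.3% for *SIM*.

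The remaining *KRP* genes had log2 fold changes from -0.49 (*KRP6*) to 0.71 (*KRP3*), with those of *KRP1*, *KRP2* and *KRP5* at -0.02, 0.67 and 0.47, and adjusted p of 0.228 to 0.978 in limma. Of these, *KRP3* had groups that did not overlap, at 13.7, 16.1 and 9.21 in 0v and 24.4, 23.1 and 22.7 in 4v. *KRP7*, not tested, had 6.83, 12.9 and 2.37 in 0v and 12.2, 5.47 and 8.52 in 4v. The 9 inhibitor genes together summed to 466 ± 51.7 normalized counts in 0v and 451 ± 42.9 in 4v (SD, n = 3 each), a ratio of means of 0.969.

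**Figure D3:**
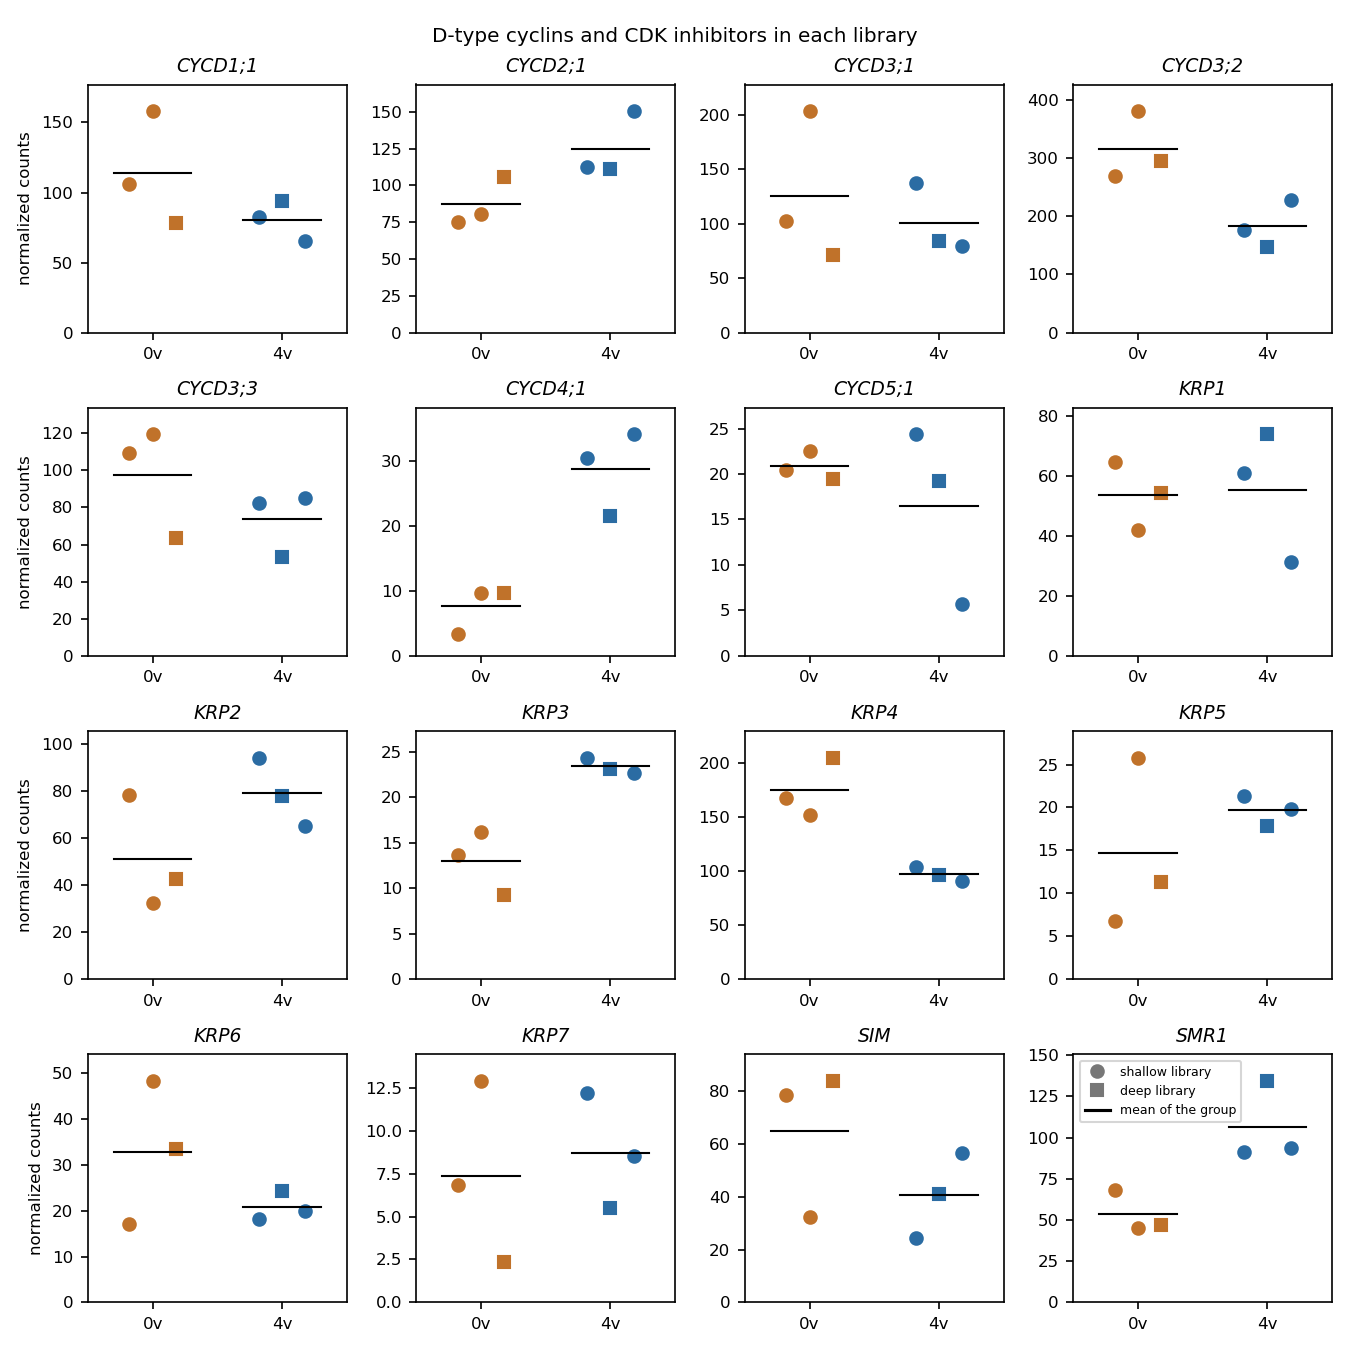
Normalized counts (y axis, from 0) of the 7 D-type cyclins and 9 CDK inhibitors in each library of 0v and 4v, with shallow libraries as circles, deep ones as squares and group means as lines. *KRP4* and 1 D-type cyclin have every 4v library below every 0v library, and *KRP3*, *SMR1* and 2 D-type cyclins have every 4v library above.

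Of the 17 genes of G2 and M tested, 13 had a positive log2 fold change, with a median of 0.26. The groups did not overlap for 2, both higher in 4v (20.5% of all genes), and 0 were called by limma in either direction. At an unadjusted p under 0.05, 2 were higher (*CYCB1;4* and *CDKB1;1*), where 32.0% of all genes passed in either direction. limma-voom called 3 higher (*CYCB1;1*, *CYCB1;4* and *CDKB1;1*), against 14.9% of all genes, and edgeR and DESeq2 called 0. The summed level of the 17 genes was 860, 1255 and 801 normalized counts in 0v and 941, 960 and 1175 in 4v. The highest and the lowest of these sums both belonged to 0v, and the means were 972 ± 247 and 1025 ± 130 (SD, n = 3 each). In the plot of these genes by library, 0v replicate 2 was the highest library of its group for 12 of the 17 and the highest of all 6 libraries for 9, and 4v replicate 3 was the highest of its group for 11.

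**Figure D4:**
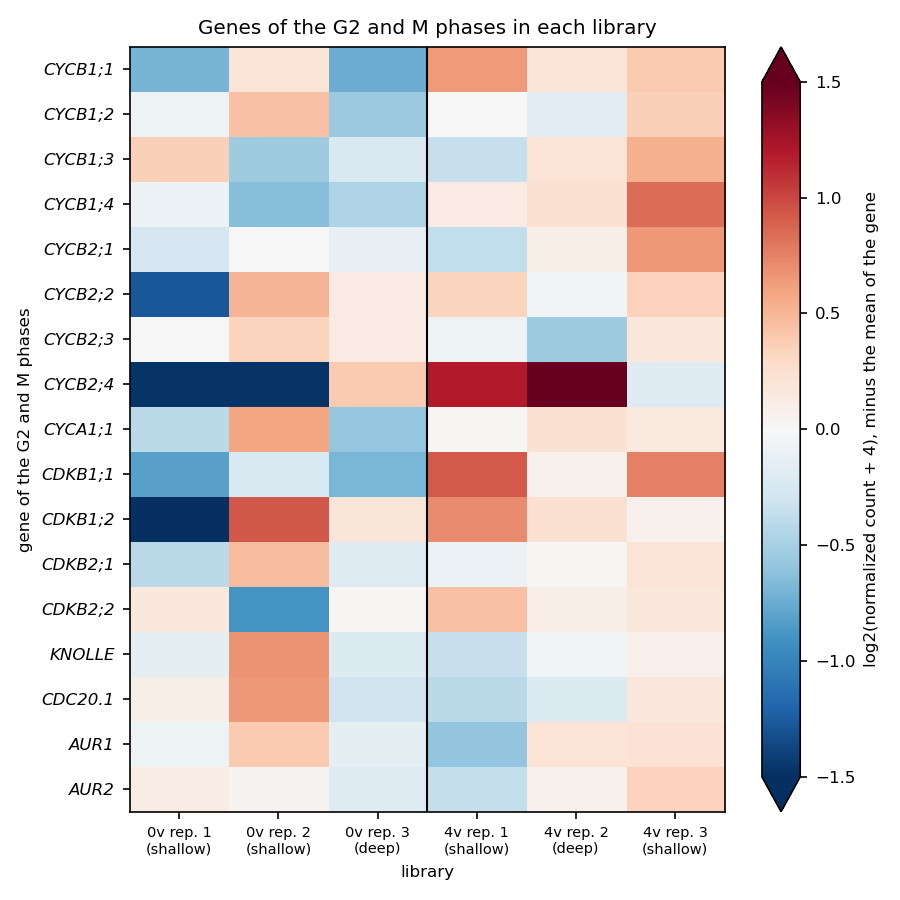
Level of the 17 genes of G2 and M (rows) in each library (columns) as log2(normalized count + 4) minus the mean of the gene over the 6 libraries, with red above and blue below that mean and the black line between 0v and 4v. The colour follows the library as much as the group, with 0v replicate 2 at the top of its group for 12 genes, and values beyond 1.5 take the end colours.

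Among the B-type cyclins, which activate CDKs at mitosis, 7 of 8 had a positive log2 fold change. *CYCB2;4* had the largest value (1.70, SE 0.80, limma adjusted p = 0.189), with 0, 0 and 10.5 normalized counts in 0v and 21.3, 28.6 and 5.68 in 4v, so that the groups overlapped and the shallow libraries held at most 7 reads. *CYCB1;1*, widely used as a reporter of G2 and M cells, had 20.5, 41.9 and 19.7 in 0v and 57.9, 41.3 and 48.3 in 4v (0.82, SE 0.35, limma adjusted p = 0.160). Of the 8, *CYCB1;4* had groups that did not overlap (0.79, limma adjusted p = 0.124), and the others ranged from -0.30 (*CYCB2;3*) to 0.43 (*CYCB2;2*).

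The A-type cyclins, which act from S phase to mitosis, had fitted log2 fold changes from -0.43 to 0.26. Of 5 tested, 0 were called by limma (6.46% of all genes higher and 6.99% lower), limma-voom, edgeR or DESeq2. An unadjusted p under 0.05 was found for 0 of them, against 32.0% of all genes. The largest value was that of *CYCA2;4*, with 30.7, 54.8 and 38.4 normalized counts in 0v and 18.3, 30.2 and 42.6 in 4v, overlapping (-0.43, SE 0.38, limma adjusted p = 0.475). The other 4 had log2 fold changes from -0.18 to 0.26, and their groups overlapped too. *CYCA3;1* was listed at 0 in each shallow library and at 6.05 (23 reads) and 19.9 (98 reads) in the deep 0v and 4v libraries.

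Among the kinases, *CDKB1;1*, which pairs with A2-type cyclins to hold cells in the mitotic cycle, had 13.7, 22.6 and 15.3 normalized counts in 0v and 54.8, 28.4 and 48.3 in 4v. The groups did not overlap, and its log2 fold change was 1.15 (SE 0.37, limma adjusted p = 0.0806), on 4 to 18 reads in the shallow libraries. *CDKA;1*, present through the whole cycle, had 263, 232 and 311 in 0v and 283, 225 and 199 in 4v, a log2 fold change of -0.19 with a 95% interval that spans 0 (limma adjusted p = 0.520). *CDKB1;2* had 0, 29.0 and 15.8 in 0v and 24.4, 16.4 and 14.2 in 4v, overlapping. Its log2 fold change of 0.67 (SE 0.80, limma adjusted p = 0.599) includes the value of 0 listed in 0v replicate 1. Between the deep libraries alone it was 0.06. *CDKB2;1* and *CDKB2;2* had log2 fold changes of 0.09 and 0.47, with overlapping groups.

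The mitotic genes had overlapping groups throughout. *CDC20.1*, an activator of the anaphase-promoting complex, had 212, 316 and 162 normalized counts in 0v and 149, 172 and 224 in 4v (-0.30, SE 0.27, limma adjusted p = 0.494), and shares 37.3% of its stretches of 31 bases with *CDC20.2*, so that reads may be split between them. *KNOLLE*, the syntaxin of the cell plate, and the Aurora kinases *AUR1* and *AUR2* had log2 fold changes of -0.21, -0.11 and 0.03. Of 10 tested genes of a further list for mitosis and cytokinesis, 0 were called by limma, limma-voom, edgeR or DESeq2, with a median of 0.13. At an unadjusted p under 0.05, 1 of them was higher, where 32.0% of all genes passed in either direction.

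Other regulators of CDK activity were split. In the list of 7 CDK-activating kinase and CKS genes, 2 were called higher by limma and 0 lower (6.46% and 6.99% of all genes), and the median was 0.79. The called genes were *CDKD;2* (0.79, limma adjusted p = 0.0472), which phosphorylates CDKs in their activation loop, and *CKS2* (0.92, limma adjusted p = 0.0466), a docking subunit. Both were also called by limma-voom (adjusted p = 0.00956 and 0.0201), which called 3 of the 7 higher and 0 lower (14.9% and 13.8% of all genes). Neither call stood in edgeR (adjusted p = 0.0521 and 0.0557) or DESeq2, nor in limma without any 1 library (adjusted p up to 0.150 and 0.147). *CDKF;1*, a kinase that activates the CDKD kinases, had 126, 152 and 179 normalized counts in 0v and 0, 116 and 125 in 4v, without overlap, and its log2 fold change of -1.97 (limma adjusted p = 0.322) includes the value of 0 listed in 4v replicate 1. Between the deep libraries alone it was -0.62. *CKS1*, the other docking subunit, had a log2 fold change of -0.44 with every 4v library under every 0v library (limma adjusted p = 0.138). Of 9 tested genes of endoreduplication and the DNA damage checkpoint, 0 were called by limma, edgeR or DESeq2, and limma-voom called 1 higher (14.9% of all genes). At an unadjusted p under 0.05, 1 was lower, where 32.0% of all genes passed in either direction. A positive log2 fold change was found for 1 of the 9, and their median was -0.31. *CCS52B*, a mitotic activator of the anaphase-promoting complex, had 154, 187 and 106 normalized counts in 0v and 70.0, 82.9 and 85.2 in 4v (-0.84, limma adjusted p = 0.0635).

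Between the deep libraries alone, the 95% exact binomial interval of the ratio lay above 0 on the log2 scale for 24 of the 45 tested members and below 0 for 9. It lay above 0 for 7 of the 8 replication genes and for 9 of the 17 genes of G2 and M, in which 0v replicate 2, the library with the highest sum, takes no part. The deep 0v library, replicate 3, had the lowest sum of the genes of G2 and M (801 normalized counts). It was also the lowest of its group for 5 of the 9 genes of G1/S and S. The share of all genes with such an interval was not computed, so these counts are no result about the members. These intervals hold counting error only and no spread between plates.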

How the data were processed

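RNA-seq of 6 libraries, 3 of 0v and 3 of 4v wild-type Col-0 seedlings, was used, with groups and replicate numbers from the labels. The authors quantified read pairs of 75 bases (TruSeq mRNA, polyA selection) against TAIR10 with Kallisto and processed them with DESeq2. Versions of these tools are not given in the sources used here. In the deposited table signal is a normalized count per gene, that is reads divided by 1 size factor per library. Whole reads were recovered from the smallest spacing of values within a library, with 100% of values within 0.05 of a whole read, and library totals were 1636687 to 23141488. The authors' columns of fold changes and p-values (DESeq2) were not used, nor were 20 columns without a sample name, and 1 gene with displaced values was left out of 18369.

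Differences were tested with limma 3.58.1 in R 4.3.3 (a linear model with eBayes and a trend, two-sided) on log2(normalized count + 4). Genes entered where the mean over libraries reached 10. Adjustment was by Benjamini-Hochberg over all 16771 of them, with a threshold of 0.05. Members were described by counts and medians, with no set test. Alternatives changed the pseudocount (1 or 16), the filter (none, or 50), the normalization (quantile) or the tool (limma-voom, DESeq2 1.42.0 and edgeR 4.0.16, all on recovered reads), thinned each library to 1636687 reads, took a replicate block or depth class into the model, or left out the deep libraries or each library in turn. Treating values of 0 as missing where the deep library of the group implied at least 5 reads, and the ratio of the 2 deep libraries with a 95% exact binomial interval, were added after seeing the data. The test was tried on simulated data.

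Named genes were every called member, the member with the largest absolute log2 fold change in a class without a call, and from each further list every called gene, up to 4. Other genes were named with values after these were seen. The members and all lists were chosen with earlier results of these data known. Shared stretches of 31 bases were computed from RefSeq transcripts of TAIR10.1, in which 18306 of 18307 genes located had the coordinates of the table.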

Additional observations from a re-analysis of the deposited data

How the results depend on the processing

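Replicate numbers only name libraries (deviations of same-numbered libraries correlated at 0.07, -0.10 and -0.10), and with the number as a replicate block 0 members were called higher or lower, against 481 and 567 of all genes. Members called higher, 1 by the main test, were 4 with a pseudocount of 16 or a mean of at least 50, 12 in limma-voom, 2 in DESeq2, on thinned reads or with depth class as covariate, 0 in the 4 shallow libraries, 7 with values of 0 as missing (chosen after seeing the data), and 0 to 4 when 1 library was left out. Members called lower, 2 by the main test, were 0 on thinned reads or in the 4 shallow libraries and 0 to 2 when 1 library was left out. Genes called higher, 1083 by the main test, were 2498 in limma-voom and 260 to 1521 when 1 library was left out, and genes called lower, 1172 by the main test, were 2318 and 400 to 1440. Of 833 values of single members, 740 kept their direction and side of the threshold, 34 crossed it upward, 23 downward and 36 turned sign, all 36 in members not called, and the cause was not tested.

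The log2 fold change turned sign as follows. Under quantile normalization it was -0.063 for *CYCB2;1*, -0.15 for *CYCA2;2*, -0.00046 for *CDKB2;1* and -0.13 for *AUR2*. In limma-voom it was -0.062 for *CYCB2;2*, -0.037 for *CYCA2;2*, 0.26 for *KRP1* and 0.23 for *AUR1*. In edgeR it was 0.065 for *KRP1*. In DESeq2 it was 0.068 for *KRP1*. On thinned reads it was -0.17 for *CDKB2;1*. In the 4 shallow libraries it was -0.0075 for *CYCB1;2*, -0.0081 for *CYCA1;1*, 0.012 for *CYCA3;2* and -0.080 for *AUR2*. With 1 library left out at a time, members that turned sign spanned -0.12 to 0.38 for *CYCB1;2*, -0.0075 to 0.50 for *CYCB2;1*, -0.10 to 0.79 for *CYCB2;2*, -0.11 to 0.22 for *CYCA2;2*, -0.21 to 0.10 for *CYCA3;2*, -0.55 to 0.17 for *CYCD3;1*, -0.73 to 0.050 for *CYCD5;1*, -0.22 to 1.3 for *CDKB1;2*, -0.10 to 0.34 for *CDKB2;1*, -0.25 to 0.32 for *KRP1*, -0.10 to 2.27 for *MCM3*, -0.047 to 2.44 for *MCM6*, -0.37 to 0.075 for *KNOLLE*, -0.25 to 0.15 for *AUR1* and -0.13 to 0.22 for *AUR2*. Low depth in 4 libraries limits the members with few reads, and an absence of calls among them is no sign of equal levels.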
